A study of Mus musculus with 5 samples.

Results

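Guides to the KMT2 genes and Ncoa6 were followed through a CRISPR screen of mouse embryonic stem (ES) cells. A lentivirus delivers 1 guide RNA of a large pool to a cell, the guide leads the Cas9 nuclease to its gene, and sequencing the guides shows which of them gain or lose share as the cells divide. The members were the rows whose gene name starts with KMT2, or with MLL and a number, and those named NCOA6; MLLT genes are a different group and were left out, and other KMT2 genes were not analysed here. This gave 5 of the 1682 targeted genes, Kmt2a, Kmt2b, Kmt2c, Kmt2d and Ncoa6, with 10 guides each, or 50 of the 17820 guides. The genes were chosen by their guide abundances in these same libraries: the changes of Kmt2c, Kmt2d and Ncoa6 (KMT2C, KMT2D and NCOA6 in the files) at days 5, 8 and 12 were known. Every value below is therefore a description, and no test was made.

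Cells were sequenced at days 5, 8 and 12, with 1 library a day, and 2 libraries were made from the plasmid prep of the guides, which is the starting level. All libraries carry the labelled genotype Ainv15(iNgn2 Tubb3::GFP) and are labelled as untreated, and the cells were kept in ES cell medium with Zeocin, the selection drug. Titles give days since transduction, the protocol gives the earliest as days of selection, and the days therefore serve as names. The labels leave unsaid if 1 culture was sampled repeatedly, and with 1 library at each a difference between days has no replicate check. ES cell markers cannot be read from guide counts, so the cell label was not checked.

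KMT2 enzymes methylate histone H3 on lysine 4, a mark of active promoters and enhancers. They work in large assemblies that share a core including Ash2l. Kmt2a and Kmt2b associate with menin (Men1) and act mostly at promoters, and Kmt2b is known in ES cells for its part at promoters that carry active and repressive marks together. Kmt2c and Kmt2d act mostly at enhancers, where they place the monomethyl mark, and Ncoa6, a nuclear receptor coactivator, is a subunit of their assemblies.

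Total reads ranged from 1008492 to 1082489 in the cell libraries and were 3541896 and 1350234 in plasmid libraries 1 and 2. Guides with at least 30 reads in each plasmid library were kept: 43 of the 50, namely 9 for Kmt2d, 9 for Kmt2c, 10 for Ncoa6, 7 for Kmt2a and 8 for Kmt2b. Abundance is given as scaled CPM, the reads of a guide relative to the scaled size of its library. A guide's change is the difference of log2(scaled CPM + 1), and a gene's change is the median over its kept guides, with the SD over guides. Guides of a gene are not replicate cultures, and intervals on reads cover counting error only. Non-targeting guides, the negative controls of the library, stood above the typical guide in the cells, with a median of 0.41 at day 5 and 0.58 at day 12 relative to plasmid over 893 guides. Their change depended on base composition, by 0.126 log2 units per G or C base at day 5 against plasmid and by -0.0014 at day 12 against day 5. The median number of G or C bases was 11 for guides to Kmt2d, 11 for Kmt2c, 10.5 for Ncoa6, 10 for Kmt2a and 9.5 for Kmt2b, and 11 for the non-targeting guides.

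Several guides of Kmt2c and Kmt2d are alike in sequence. Guides of different genes were aligned without gaps on either strand, and a pair was called alike when at least 18 aligned bases were at least 70% identical. Of 600 guide pairs between different Kmt2 genes 9 were alike: 5 between Kmt2c and Kmt2d, 2 between Kmt2a and Kmt2b, 1 between Kmt2b and Kmt2c and 1 between Kmt2b and Kmt2d. None of 400 pairs with Ncoa6 was alike. The following sequences show 4 of the 5 alike pairs of Kmt2c and Kmt2d, with the Kmt2b guide that matches Kmt2c guide 8 at the end. All have 20 bases, are written 5′ to 3′, and have in capitals the bases that differ within the pair. Kmt2d guide 4 is on the opposite strand and is given as its reverse complement, and Kmt2d guide 3 starts 1 base before Kmt2c guide 3. The last sequence marks its differences from Kmt2c guide 8.
Kmt2d guide 2: attgacgccacGTtGacCgg
Kmt2c guide 4: attgacgccacACtCacAgg
Kmt2d guide 10: GgcaggGcctccGgtCaACg
Kmt2c guide 9: TgcaggCcctccTgtGaGTg
Kmt2d guide 3: ggaGgtcgtgacGtttgaCa
Kmt2c guide 3: gaAgtcgtgacCtttgaGag
Kmt2d guide 4 (reverse complement): CggtAtTtacatgttTcgGa
Kmt2c guide 8: GggtGtGtacatgttCcgCa
Kmt2b guide 4: TggGTGCtacatgttccgca

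Some guides of 1 gene also share bases, so their target sequences overlap. Requiring at least 8 identical shared bases, the 10 guides fell into 8 separate stretches for Kmt2d, 7 for Kmt2c, 6 for Ncoa6, 7 for Kmt2a and 10 for Kmt2b. The next sequences are the pairs that share most, with the shared bases in capitals, shown because their values at day 12 are compared below. Each pair below lies on opposite strands. The Ncoa6 pairs share 19 bases and the Kmt2a pair 18.
Ncoa6 guide 3: aACTATGGCTTCTGAGAGCG
Ncoa6 guide 8: aCGCTCTCAGAAGCCATAGT
Ncoa6 guide 5: tTCACAGAATTTAGCCCCAA
Ncoa6 guide 10: tTTGGGGCTAAATTCTGTGA
Kmt2a guide 2: TGAGTACAACCCTAACGAtg
Kmt2a guide 3: TCGTTAGGGTTGTACTCAgg

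Guides to Kmt2d (chromosome 15, 98831669 to 98874077, mm10) stayed near their plasmid level until day 8 and were far above it at day 12. The 9 kept guides together held 503 and 482 scaled CPM in plasmid libraries 1 and 2, then 489, 599.5 and 2182 at days 5, 8 and 12. The exact 95% Poisson interval at day 12, 2088 to 2279.8, lay wholly above that at day 8, 554 to 648. Day 12 was by far the highest library. The day 8 interval also lay above those of plasmid libraries 1 and 2 and of day 5, which ended at 527, 521 and 533.

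The median change of Kmt2d relative to plasmid was -0.17 (SD 1.00, n = 9 guides) at day 5, 0.21 (SD 0.47) at day 8 and 2.13 (SD 0.79) at day 12. This last value is 4.37-fold, with 9 of 9 guides above 0 and 8 of 9 at 1 or more. It was the third highest of 1682 genes. At day 12, 6 of the 9 guides lay above the 95th percentile of the non-targeting guides, which was 1.53. Under the alternative settings the day 12 median lay between 1.55 and 2.16. At day 5 the sign is not settled: without plasmid replicate 1 the median was 0.047, and centred on the non-targeting guides it was -0.58. At day 8 the centred median was -0.32, so its sign depends on the setting too.

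The largest change of Kmt2d lay between days 8 and 12. The median was 0.37 (SD 0.68) at day 8 against day 5, with 6 of 9 guides above 0. It was 1.64 (SD 0.51) at day 12 against day 8, with 9 of 9 guides above 0, the highest of all 1682 genes. All 9 guides exceeded the 95th percentile of the non-targeting guides in that interval, 0.68. The summed reads of the kept guides were 2002 at day 12 and 628 at day 8, a scaled ratio of 3.64 with a 95% counting interval of 3.33 to 3.99. Of all genes, 0.416% had a median of 1 or more at day 12 against day 8. The base-composition slope of the non-targeting guides in that interval was 0.0035 log2 units per base.

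**Figure D1:**
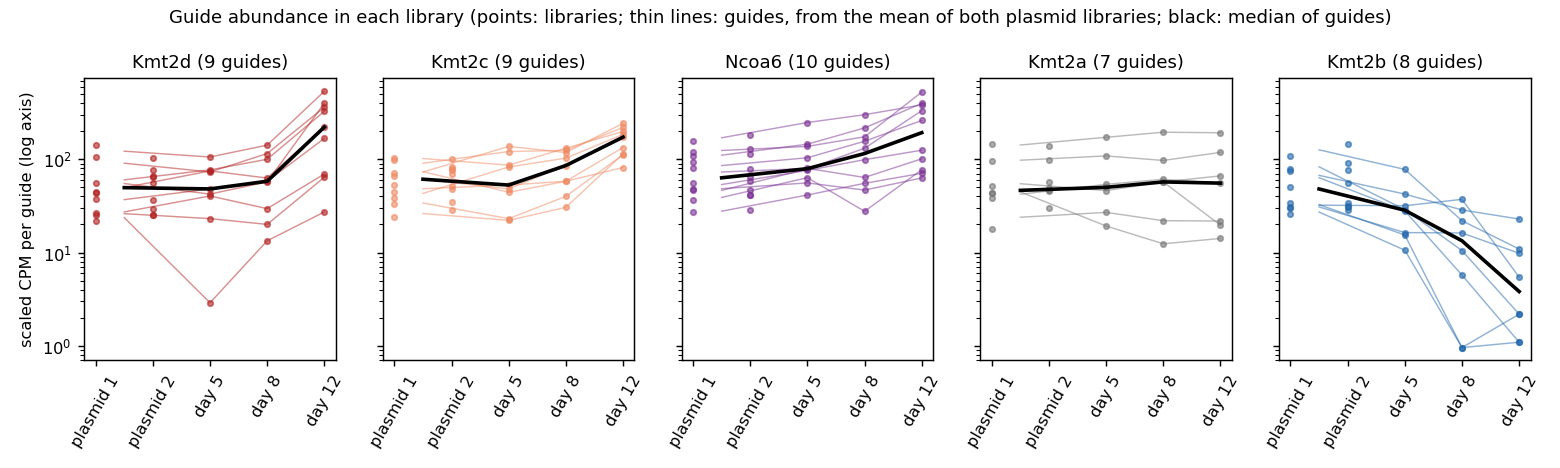
Abundance of each kept guide in each library, as scaled CPM on a log axis, in 1 panel per gene. Points are single libraries, thin lines follow a guide from the mean of both plasmid libraries through days 5, 8 and 12, and the black line is the median over guides. The Kmt2d lines turn up after day 8, most Kmt2b lines go down at each step, and 1 Kmt2d guide dips to 2.89 scaled CPM at day 5.

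All 9 kept guides of Kmt2d were above 0 at day 12, 8 of them above the non-targeting median of 0.58, and they differed in size. The highest was guide 5, with 44.2 and 65.9 scaled CPM in plasmid libraries 1 and 2, then 42.4, 57.3 and 401 at days 5, 8 and 12. The most abundant was guide 8, at 142 and 103 in the plasmid libraries, then 106, 142 and 538 on days 5, 8 and 12. Both were close to their plasmid level up to day 8 and high at day 12. Their sequences are shown as those of the guides with the largest change and the most reads at day 12.
Kmt2d guide 5: cggcaccatcattcgcaatg
Kmt2d guide 8: ccggcgaatccccaaaggag

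The lowest guide of Kmt2d was guide 4, with 21.9 and 25.5 scaled CPM in the plasmid libraries, then 2.89, 13.4 and 27.2 on days 5, 8 and 12. Its day 5 value is 3 reads, with a 95% Poisson interval of 0.619 to 8.77, so its course from day 5 on starts from a poorly measured point. It ended at a change of 0.19 relative to plasmid, beside 1.27 to 2.84 for the other 8. This rests on 25 reads at day 12, with a 95% Poisson interval of 16.2 to 36.9. It lies below the non-targeting median of 0.58, so the direction of guide 4 is not settled. Guides 3 and 9, which share 17 bases, ended at 1.27 and 2.15.

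Guides to Kmt2c (chromosome 5, 25271795 to 25498855) took the same direction with a smaller size. The 9 kept guides together held 531 and 575 scaled CPM in plasmid libraries 1 and 2, then 619.6, 751 and 1465 at days 5, 8 and 12. The day 12 interval, 1388 to 1545, lay above that of day 8, 699.7 to 806. Day 12 was again the highest library, with days 5 and 8 between it and the plasmid libraries. The day 5 interval, 573 to 669, overlapped that of plasmid library 2, 535 to 617, so day 5 was not set apart from that library.

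The median change of Kmt2c relative to plasmid was -0.23 (SD 0.60, n = 9 guides) at day 5, 0.36 (SD 0.42) at day 8 and 1.49 (SD 0.60) at day 12. At day 12 this is 2.80-fold, with 9 of 9 guides above 0, and was the eleventh highest of 1682 genes. At day 12, 4 of the 9 guides lay above the 95th percentile of the non-targeting guides, and 8 of 9 above their median. Centred on the non-targeting guides the median at day 12 was 0.90, and over all settings it lay between 0.90 and 1.70. At day 5 the median lay between -0.64 and 0.16 over the settings, on both sides of 0, with 0.16 from reads summed over guides. At day 8 it was -0.17 centred on the non-targeting guides, so that sign depends on the setting too.

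In the last interval, day 12 against day 8, the median of Kmt2c was 1.00 (SD 0.43) with 9 of 9 guides above 0. It stood at the limit of 1 used for the counts, with 5 of 9 guides at 1 or more. Over the settings it ranged from 0.68 to 1.07. In the interval before, day 8 against day 5, it was 0.39 (SD 0.34) with 8 of 9 guides above 0. The summed reads of the kept guides were 1344 at day 12 and 787 at day 8, a scaled ratio of 1.95 with a counting interval of 1.78 to 2.13.

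Within Kmt2c the highest changes at day 12 were 2.09 for guide 6 and 2.08 for guide 2. Guide 6 had 24.0 and 28.4 scaled CPM in the plasmid libraries, then 22.2, 30.5 and 114 on days 5, 8 and 12. Guide 2 had 38.4 and 47.9 in the plasmid libraries, then 82.9, 103 and 185 on days 5, 8 and 12. So 1 of them was high late and the other was already above its plasmid level at day 5. The sequences are shown because guide 6 shares its first 9 bases, in capitals, with Kmt2c guide 1, which ended at 0.96, and guide 2 shares 16 bases with Kmt2c guide 4, which ended at 1.49.
Kmt2c guide 6: TCCAACCGGaggatacagaa
Kmt2c guide 1: ttatcatcagcTCCAACCGG
Kmt2c guide 2: TGAGTGTGGCGTCAATcacg

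The matching stretches of Kmt2c and Kmt2d gave a paired view of both genes. At the stretch of Kmt2d guide 2 and Kmt2c guide 4 the changes at day 12 were 2.14 and 1.49. At Kmt2d guide 10 and Kmt2c guide 9 they were 2.42 and 1.72, and at Kmt2d guide 3 and Kmt2c guide 3 they were 1.27 and 1.27. Kmt2d guides 2 and 10 share 10 bases, as do Kmt2c guides 4 and 9, so the pairs they form are not separate stretches. Kmt2d guide 9, which overlaps Kmt2d guide 3 and is also alike to Kmt2c guide 3, ended at 2.15. The remaining pair held the lowest kept guide of each gene: Kmt2d guide 4 at 0.19 and Kmt2c guide 8 at 0.15. Kmt2c guide 8 had 71.3 and 76.4 scaled CPM in the plasmid libraries, then 44.3, 58.2 and 81.7 on days 5, 8 and 12. At day 5 these guides were also the lowest kept guides of their genes, at -2.67, which rests on 3 reads, and -0.72. Both days use the same plasmid reference, so they are not separate readings. The coincidence was seen after the values were known. Kmt2d guide 4 has 8 G or C bases and Kmt2c guide 8 has 11. Non-targeting guides with 8 had medians of -0.19 at day 5 and 0.10 at day 12. The part of base composition was not tested. Where the guides cut, and whether they also match other sites, was not analysed here.

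Guides to Ncoa6 (chromosome 2, 155390656 to 155473911), the shared coactivator subunit, had a median above 0 relative to plasmid at every time point. The 10 guides together held 773 and 788 scaled CPM in plasmid libraries 1 and 2, then 1032, 1275 and 2343 at days 5, 8 and 12. Each later library was higher than the one before. The Poisson intervals of days 5, 8 and 12 did not overlap, at 971 to 1096, 1208 to 1346 and 2245 to 2445.

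The median change of Ncoa6 relative to plasmid was 0.44 (SD 0.22, n = 10 guides) at day 5, 0.84 (SD 0.62) at day 8 and 1.26 (SD 0.74) at day 12, or 2.40-fold at day 12. At day 5 it lay close to the non-targeting median of 0.41, and centred on those guides it was 0.031. Centred on them it was 0.30 at day 8 and 0.68 at day 12. Above 0 were 10 of 10 guides at day 5 and 7 of 10 at day 8, where guide 7 was lowest at -0.48. At day 12, 10 of 10 guides were above 0 and 8 of 10 above the non-targeting median. Above the 95th percentile of the non-targeting guides, 1.53, were 4 of 10. Of the 893 non-targeting guides, 97 lay at or above the Ncoa6 median of 1.26. The gene ranked 50 of 1682 from the top at day 5, 9 at day 8 and 16 at day 12.

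Ncoa6 too had its largest median in the last interval. The median was 0.36 (SD 0.58) at day 8 against day 5 and 0.70 (SD 0.48) at day 12 against day 8, with 7 and 10 of 10 guides above 0. The summed reads were 2150 at day 12 and 1336 at day 8, a scaled ratio of 1.84 with a counting interval of 1.72 to 1.97. In day 12 against day 8, 5 of 10 guides lay above the 95th percentile of the non-targeting guides.

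Ncoa6 guides differed in size at day 12. Guides 5 and 10, which share 19 bases, were the lowest at day 12, at 0.47 and 0.38. Guide 5 had 81.1 and 65.1 scaled CPM in the plasmid libraries, then 80.0, 64.0 and 101 on days 5, 8 and 12. Guides 3 and 8, which also share 19 bases, ended at 1.32 and 2.07. The highest was guide 6, at 2.81, with 46.5 and 46.4 scaled CPM in the plasmid libraries, then 79.0, 132 and 332 on days 5, 8 and 12. Guide 2, which shares 10 bases with guide 6, ended at 1.21. Both low guides have 8 G or C bases, the fewest among the guides of this gene. Non-targeting guides with 8 such bases had a median of 0.10 at day 12. The other kept member guides with 8 such bases ended at 1.69 (Kmt2c guide 10), 0.19 (Kmt2d guide 4), -0.13 (Kmt2a guide 7) and -3.42 (Kmt2b guide 3). The part of base composition in the low values of Ncoa6 guides 5 and 10 was not tested. Averaging overlapping guides first, an alternative chosen after seeing the data, gave a median of 1.65 over 6 stretches at day 12. The sequence of the highest guide is shown with the bases it shares with guide 2 in capitals.
Ncoa6 guide 6: actccagccaCAGCACTGCA
Ncoa6 guide 2: aacagaccctTGCAGTGCTG

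Guides to Kmt2b (chromosome 7, 30568855 to 30589056) went the opposite way to Kmt2c, Kmt2d and Ncoa6. The 8 kept guides together held 434 and 493 scaled CPM in plasmid libraries 1 and 2, then 252, 122 and 55.6 at days 5, 8 and 12. Every later library was lower, and the intervals at day 5, 222 to 284, day 8, 102 to 145, and day 12, 41.4 to 73.1, did not overlap.

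The median change of Kmt2b relative to plasmid was -0.96 (SD 0.46, n = 8 guides) at day 5, -2.67 (SD 1.53) at day 8 and -3.41 (SD 1.31) at day 12. At day 12 this left 9.39% of the plasmid abundance, with 8 of 8 guides at -1 or less and below the 5th percentile of the non-targeting guides, -0.81. The gene was the 17th lowest of 1682. With at least 100 plasmid reads 3 guides were left, and their median at day 12 was -5.00. With a pseudocount of 5 it was -2.40, since the pseudocount sets the size of such low values.

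By its median the largest change of Kmt2b came between days 5 and 8. The median was -1.58 (SD 1.20) at day 8 against day 5, the fourth lowest of all genes, and -0.81 (SD 1.09) at day 12 against day 8. In summed reads of the kept guides the day 8 to day 5 ratio was 0.486 with a counting interval of 0.390 to 0.603. The day 12 to day 8 ratio was 0.455 with an interval of 0.322 to 0.634. On that scale the intervals overlap, so the order of the medians does not hold for the sums. With at least 100 plasmid reads the median was -1.79 at day 8 against day 5 and -1.98 at day 12 against day 8, over 3 guides.

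Single Kmt2b guides took different courses. Guide 1 had 50.8 and 76.4 scaled CPM in the plasmid libraries, then 27.9, 5.73 and 1.09 on days 5, 8 and 12, where it had 1 read. Guide 6 had 33.8 and 30.7 in the plasmid libraries, then 31.8, 37.2 and 5.45 on days 5, 8 and 12, so it was near its plasmid level until day 8. Guides 5 and 7 kept the most at day 12, with changes of -1.52 and -1.56. The guide that matches the stretch of Kmt2c guide 8, Kmt2b guide 4, was at -1.28 at day 5 and -3.75 at day 12, with 1 read left. The guides with the lowest and the highest change at day 5 are shown.
Kmt2b guide 9: tacaaaacagacctcgtcca
Kmt2b guide 6: gccttgcgccgcatcctgcg
Kmt2b guide 9 had the lowest change at day 5, -1.49, and ended at -4.73.

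Guides to Kmt2a (chromosome 9, 44803355 to 44881352), the closest relative of Kmt2b, stayed near their plasmid level. The 7 kept guides together held 439 and 466 scaled CPM in plasmid libraries 1 and 2, then 478, 503 and 489 at days 5, 8 and 12. The median change relative to plasmid was 0.15 (SD 0.53, n = 7 guides) at day 5, 0.06 (SD 0.78) at day 8 and 0.28 (SD 0.91) at day 12. Its sign at day 12 depends on the setting: the median was -0.31 centred on the non-targeting guides, -0.22 as a mean and -0.13 with overlapping guides averaged first. Centred on the non-targeting guides it was also below 0 earlier, at -0.26 at day 5 and -0.47 at day 8. At days 5, 8 and 12, 0 of 7 guides lay above the non-targeting median.

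The guides of Kmt2a did not agree at day 12, where 4 of 7 were above 0 and 2 of 7 at -1 or less. Guide 2 had 43.9 and 45.7 scaled CPM in the plasmid libraries, then 19.3, 12.4 and 14.2 on days 5, 8 and 12. Guide 3, which shares 18 bases with it on the other strand, had 38.1 and 46.4 in the plasmid libraries, then 54.0, 61.1 and 55.6 on days 5, 8 and 12. The pair thus overlaps in sequence and ended at -1.59 and 0.39. Guide 1 was near its plasmid level until day 8 and ended at -1.44.
Kmt2a guide 1: ccatgcgtaagatctaccgg

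**Figure D2:**
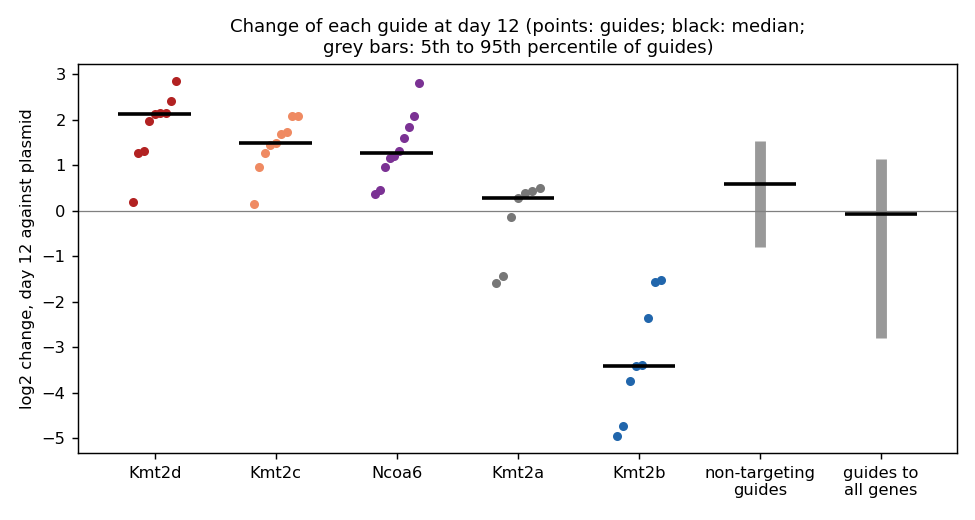
Change of each kept guide at day 12 against plasmid, as a log2 difference, for the 5 genes. Points are guides, black bars are medians, and the grey bars on the right span the 5th to 95th percentile of 893 non-targeting guides and of 14443 guides to all genes. All Kmt2d, Kmt2c and Ncoa6 guides are above 0, all Kmt2b guides are at -1.52 or less, and Kmt2a guides lie on both sides of 0.

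At day 12 the medians ran in the order Kmt2d 2.13, Kmt2c 1.49, Ncoa6 1.26, Kmt2a 0.28 and Kmt2b -3.41. Kmt2d and Kmt2c differed by 0.64, less than the SD of 0.79 over Kmt2d guides and about the SD of 0.60 over Kmt2c guides. Kmt2c and Ncoa6 differed by 0.22, less than either SD, and their order turned under 3 settings. Kmt2c and Ncoa6 stood at 1.39 and 1.57 with reads summed over guides, at 1.49 and 1.65 with overlapping guides averaged first, and at 1.07 and 1.67 with at least 100 plasmid reads. Ncoa6 and Kmt2a differed by 0.99, above the SDs of 0.74 and 0.91, yet the lowest Ncoa6 guide, 0.38, lay below the highest Kmt2a guide, 0.51. Kmt2a and Kmt2b differed by 3.69, far above the SDs, although 1 Kmt2a guide at -1.59 reached the range of Kmt2b.

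Read against all genes of the library, 3 of the 5 members had a median of 1 or more at day 12 against plasmid, where 1.19% of 1682 genes did. A median of -1 or less was found for 1 member and for 15.8% of all genes. Nothing is read from these counts, since the members were picked with these values known. The median over the 5 members was 1.26, beside 0.01 over all genes. At day 5 against plasmid 0 members and 0.0595% of genes were at 1 or more, and 0 members and 6.3% of genes at -1 or less. At day 8 against plasmid 0 members and 0.178% of genes were at 1 or more, and 1 member and 12.1% at -1 or less. At day 8 against day 5 no gene of the library reached 1, and 1 member and 2.62% of genes were at -1 or less. At day 12 against day 8, 2 members and 0.416% of genes were at 1 or more, and 0 members and 0.654% of genes at -1 or less. At day 12 against day 5, 2 members and 0.832% of genes were at 1 or more, and 1 member and 7.02% of genes at -1 or less. The counts depend on the scaling. Centred on the non-targeting guides, only Kmt2d of the members reached 1 at day 12 against plasmid, at 1.55, and 8 of 1682 genes did. Kmt2c then stood at 0.90 and Ncoa6 at 0.68.

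**Figure D3:**
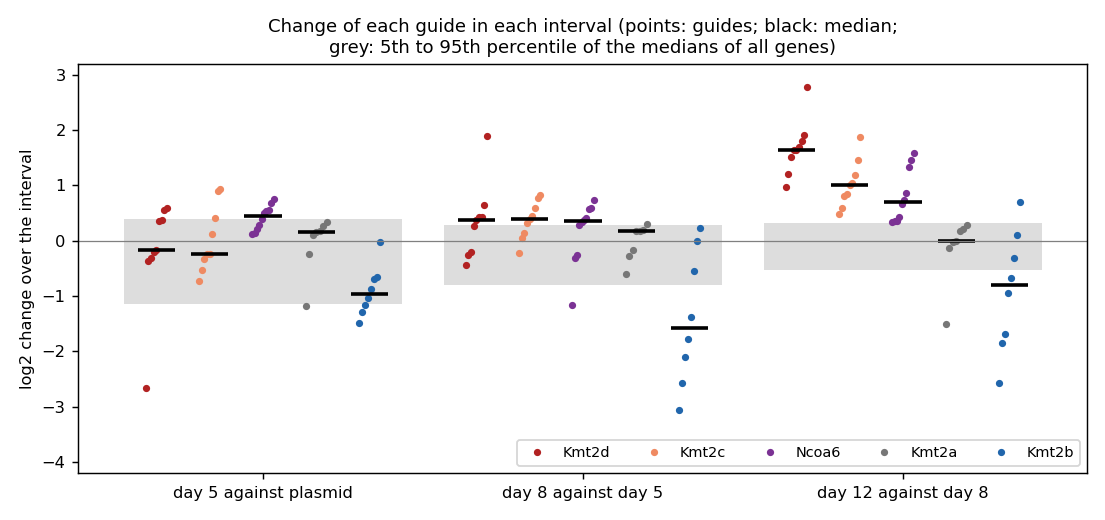
Change of each kept guide in each successive interval, as a log2 difference: day 5 against plasmid, day 8 against day 5 and day 12 against day 8. Points are guides, black bars are medians, and the grey areas span the 5th to 95th percentile of the medians of 1682 genes. In the last interval all Kmt2d, Kmt2c and Ncoa6 guides lie above 0, while Kmt2b has its lowest median in the middle interval.

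A median below 0 at day 5 together with 1 or more at day 12 was seen for 5 of 1682 genes, or 0.297%. They were Kmt2c, Kmt2d, Ncoa3, Rarg and Sall4, a combination looked for after the values were seen. The sign at day 5 is weak for Kmt2c and Kmt2d, as given above. By distance over the medians at days 5, 8 and 12 against plasmid, the 3 genes most like Kmt2d were Ncoa3 at 0.51, Kmt2c at 0.66 and Prdm14 at 0.70. Ncoa3 is a nuclear receptor coactivator, and it had -0.27 (day 5), 0.70 (day 8) and 2.00 (day 12). Prdm14, a regulator of naive pluripotency, had 0.10, 0.56 and 1.58.

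The genes most like Kmt2c were Sall4 at a distance of 0.28, Rarg at 0.34 and Prdm14 at 0.40. Sall4 is a zinc-finger factor of the pluripotency network and Rarg a retinoic acid receptor. Those most like Ncoa6 were Rxra at 0.25, a retinoid X receptor, Scand1 at 0.29 and the corepressor gene Spen at 0.32. The Rxra medians were 0.34 (day 5), 0.68 (day 8) and 1.09 (day 12). The distances cover 3 time points that share the plasmid reference and the libraries. Each is below the day 12 SD over guides of its gene, 0.79 for Kmt2d, 0.60 for Kmt2c and 0.74 for Ncoa6. The order of the neighbours is therefore not settled. Only 1.19% of all genes had a median of 1 or more at day 12 against plasmid, so few genes could be near. Whether the neighbours are related in function was not tested.

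Of 18 listed partners of the KMT2 and SETD1 assemblies 5 were in the library, and none had a median of 1 or more at day 12 against plasmid while 3 had -1 or less, beside 1.19% and 15.8% of all 1682 genes. The lowest was Cxxc1, a CpG-binding subunit of the SETD1 assemblies, at -2.43 (SD 1.08, 10 of 10 guides below 0). Hcfc1, a partner of several of these assemblies, stood at -2.15 (SD 1.66, 10 of 10 guides below 0), and Ash2l, part of the shared core, at -1.56 (SD 1.37, 9 of 9 guides below 0). Men1, which encodes menin, stood at -0.40 (SD 0.86), and the highest was Psip1, a chromatin-binding partner of menin, at -0.06 (SD 1.10). The median of these 5 genes was -1.56. Kdm6a, Paxip1 and Pagr1a were listed but not in the library, so these 5 genes leave part of the Kmt2c and Kmt2d assemblies unseen.

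Among enzymes that remove the mark, 4 of 6 listed histone H3 lysine 4 demethylases were in the library, and 1 had a median of 1 or more at day 12 against plasmid, beside 1.19% of all genes. This was Kdm5b, at 2.59 (SD 0.45, 10 of 10 guides above 0), and the lowest was Kdm5a, at -0.75 (SD 0.72). The median of the 4 was -0.08. Of 6 listed coactivators linked to enhancers 5 were in the library, with a median of 0.10. The highest was Ncoa3, at 2.00 (SD 0.66, 10 of 10 guides above 0). The lowest was Ep300, an acetyltransferase, at -1.28 (SD 0.72, 6 of 7 guides below 0).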

How the data were processed

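Guide RNA cassettes were amplified from cell DNA or the plasmid prep and sequenced, per the labels' protocols. The authors deposited unnormalized counts of reads for every guide, per the file headers. Per the submitters' processing notes, cutadapt, Bowtie, featureCounts and mm10 were used, with no version named. How reads were matched to guides is not given in the sources used here.

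The members and gene lists were chosen with earlier results of these data known. Guides with at least 30 reads in each plasmid library were kept (15336 guides). Counts were scaled with TMM factors of edgeR 4.0.16 (R 4.3.3), and changes were taken after adding a pseudocount of 1, against the mean of both plasmid libraries or the earlier day. Intervals are 95% exact Poisson, or exact binomial for ratios. Named genes were all members, the lowest and highest member of 3 lists, and, for Kmt2c, Kmt2d and Ncoa6, the 3 nearest genes by Euclidean distance. Further list members and Kmt2 guides were named for their roles or positions after their values were seen. The calculation was tested on simulated Poisson reads, scaled by total counts, with the same change for every guide of a gene. That left TMM scaling and differences between guides untested. Alternatives covered pseudocount, filter, scaling (DESeq2 1.42.0 included), plasmid reference, summary over guides and base composition. Gene symbols and coordinates are from RefSeq, GRCm38.p6, and all 5 members matched.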

Additional observations from a re-analysis of the deposited data

How the results depend on the processing

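No paired analysis was possible because only the plasmid libraries carry more than 1 replicate number. Of 360 recomputed member medians 355 moved by less than the SD over guides, and none of a median past 1 in size changed sign. With at least 100 plasmid reads the median of Kmt2b was -5.00 at day 12 against plasmid and -1.98 at day 12 against day 8, over 3 guides. Centring on the non-targeting guides moved the median of all genes by -0.41, -0.54 and -0.58 at days 5, 8 and 12 against plasmid. It put Ncoa6 at 0.031 at day 5, and Kmt2c at -0.17 and Kmt2d at -0.32 at day 8. At day 12 against plasmid it put Kmt2c at 0.90 and Ncoa6 at 0.68, both below 1, and Kmt2d at 1.55. It put 222, 365 and 458 genes past 2-fold at days 5, 8 and 12 against plasmid, where TMM scaling put 107, 207 and 285. The rise was in the lower calls only. At day 12 against plasmid centring gave 8 higher and 450 lower genes, where TMM scaling gave 20 and 265. A pseudocount of 5 put 11 past 2-fold at day 8 against day 5, 7 at day 12 against day 8 and 71 at day 12 against day 5, where a pseudocount of 1 put 44, 18 and 132. Summed reads put 21 past it at day 8 against day 5. With at least 100 plasmid reads 37 were past it at day 12 against day 8. Total-count scaling moved the median of all genes by -0.11 at day 12 against plasmid and split the calls at day 12 against day 8 into 5 higher and 13 lower, where TMM scaling gave 7 and 11. Where no reason is given, the cause was not tested. Depth limits the low end: some Kmt2b guides had 1 read at day 12.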

Other observations

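The 7 guides left out for low plasmid reads belong to 4 of the 5 genes and do not enter the medians of the kept guides. Kmt2c guide 7 had 13.6 and 10.5 scaled CPM in plasmid libraries 1 and 2, 18.3 at day 5, 20.0 at day 8 and 191 at day 12. Its reads were 47 and 14 in the plasmid libraries, then 19, 21 and 175 on days 5, 8 and 12, so the high day 12 value rests on many reads while its plasmid level rests on few. Kmt2d guide 1 had 9.81 and 12.0 scaled CPM in the plasmid libraries, then 4.82, 5.73 and 6.54 on days 5, 8 and 12, and was below its plasmid level at all 3 days, unlike the kept guides of that gene at day 12. Kmt2b guides 8 and 10 had 0 and 3 reads at day 12. With no minimum of plasmid reads the medians at day 12 against plasmid were 2.09 for Kmt2d, 1.62 for Kmt2c and -3.38 for Kmt2b, over 10 guides each.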
